A study of Mus musculus with 46 samples.

Results

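The results below compare the genotype effect in 2 organs of the same mice: how far p150-negative animals stood from p150-positive ones in the liver, set against the same distance in the cerebellum. The question is which genes respond to the genotype in 1 of the organs more than in the other. All animals were C57BL/6 mice at postnatal day 23 and carried the P195A form of Adar, with tissue and genotype taken from the labels. The groups are named P195A_p150neg (P195A/p150-) and P195A_p150pos (P195A/p150+) and are called p150-negative and p150-positive here, so both share P195A and differ in p150. The labels do not give sex. Of the 46 libraries of liver, kidney and cerebellum from 16 animals, 29 entered this comparison: 7 p150-negative and 7 p150-positive livers, and 8 p150-negative and 7 p150-positive cerebella. The test of the difference between organs used the 26 libraries of the 13 animals with a usable library of both organs (7 p150-negative and 6 p150-positive), with each animal as its own block. Libraries number 4 (labelled liver, animal 2) and number 20 (labelled cerebellum, animal 7) were left out because they carry the genes of other organs.

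ADAR1, the enzyme that Adar encodes, turns adenosines of double-stranded RNA into inosines, and this keeps the cell's own RNA from being read as viral. Its long isoform p150 is induced by interferon, lies mainly in the cytoplasm and has a domain that binds Z-form nucleic acids, where P195A is located. Where editing fails, the sensor MDA5 (gene Ifih1) starts interferon signalling, and interferon-stimulated genes are switched on through STAT and IRF proteins. The liver also makes most of the body's acute phase proteins and much of its cholesterol and fat, whereas the brain makes its own cholesterol behind the blood-brain barrier.

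Total counts ran from 532311 to 3789058 in p150-negative livers and from 1682418 to 4304331 in p150-positive livers. In the cerebella they ran from 944811 to 5467627 and from 2896170 to 6237043. Library 4 held kidney genes at a summed 8280 CPM (counts relative to the library's total count) and library 20 held Hox genes of the spinal cord at 108 CPM, against at most 9.63 and 6.7 CPM in the libraries used. The identity genes of the labelled organ were at 59.8% or more of their median in all 29 libraries used, and at 0.019% and 0.828% in the 2 left out. Alb, the gene of serum albumin and the defining hepatocyte gene, stood at 17300 to 45000 CPM in the livers and at 0 to 98.6 CPM in the cerebella. One further library stood apart from its label. The cerebellum of animal 2, labelled p150-negative, had interferon-stimulated genes at the level of p150-positive cerebella, with Isg15 at 2.56 CPM and Oasl2 at 0 CPM, against at least 45.9 and 257 CPM in the other 7 p150-negative cerebella. It has no usable liver and so is not in the test of the difference between organs, and counts of calls in the cerebellum alone that change without it are given both ways. Among p150-positive animals, the liver of animal 12 had the highest Isg15 (99.8 CPM) and Iigp1 (4070 CPM), and without animal 12 the difference between organs was called for 89 and 103 genes in place of the 104 and 121 given next.

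Among the genes whose genotype effect differed between the organs were interferon-stimulated genes, which rose more in the cerebellum, and cholesterol and fatty acid synthesis genes, which fell in the liver. Of 9023 genes with enough counts in both organs, 225 (2.49%) had a genotype effect that differed between liver and cerebellum (edgeR's quasi-likelihood test, Benjamini-Hochberg adjusted p under 0.05 over all 9023). These effects are log2 fold changes of p150-negative over p150-positive animals, and the difference is the liver effect minus the cerebellum effect, so that a negative difference means a smaller rise or a larger fall in the liver. The difference was positive for 104 genes (1.15%) and negative for 121 (1.34%), and its median over all genes was 0.05. In a fit of the livers, 1152 of 9843 genes (11.7%) passed the test, 682 rising with the p150-negative genotype (6.93%) and 470 falling (4.77%). In a fit of the cerebella, 133 of 13146 genes (1.01%) passed, 95 rising (0.723%) and 38 falling (0.289%), and without the cerebellum of animal 2 the counts were 139 (1.07%), 113 (0.869%) and 26 (0.2%) of 12998. The labels name the animal of each library, and p-values measure the spread between these animals.

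**Figure D1:**
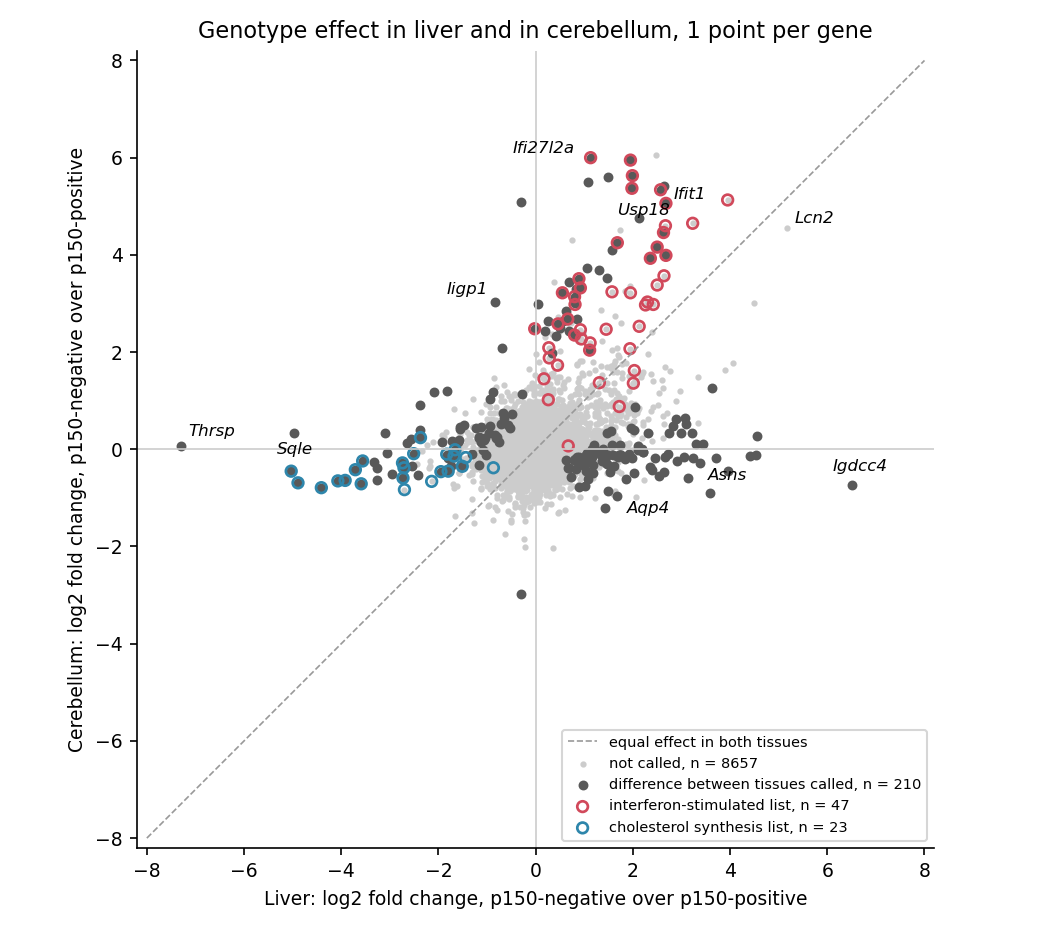
Genotype effect in the cerebellum (vertical axis, log2 fold change of p150-negative over p150-positive animals) against that in the liver (horizontal axis, same scale) for the 8867 genes tested in both organs, with the dashed line marking equal effects. Interferon-stimulated genes (red circles) lie mostly above the line at positive values on both axes, and cholesterol synthesis genes (blue circles) lie at negative liver values near 0 on the cerebellum axis.

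Among the 8867 genes tested in every fit, 56 were higher in p150-negative animals in both organs. They made up 11.1% of the 503 genes higher in the liver and 64.4% of the 87 higher in the cerebellum. Of these 56, 21 had a larger rise in the cerebellum by the test of the difference, and 0 had a larger rise in the liver. Of all genes, 1.34% had a called negative and 1.15% a called positive difference. The genes of this paragraph were picked by calls in the same data, and far fewer genes passed in the cerebellum. Large cerebellar effects were therefore favoured among the 56, and the split is not independent support. Without the cerebellum of animal 2 the genes higher in both were 64, with 21 rising more in the cerebellum and 1, Lyz2, more in the liver. A further 446 genes were called higher in the liver alone, and for 82 of them (18.4%) the difference between organs was itself called. For 318 genes called lower in the liver alone, the same was true of 66 (20.8%), and for 31 called higher in the cerebellum alone, of 20 (64.5%). Another 9 genes were lower in both organs, 2.75% of the 327 lower in the liver and 29% of the 31 lower in the cerebellum (6 without animal 2). One gene, Aqp4, moved in opposite directions. Most genes called in the liver alone were not shown to differ between the organs.

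Adar itself (ENSMUSG00000027951, GRCm38 chr3:89715022-89753446, plus strand, coordinates from GENCODE M21) was measured in all 29 libraries. In the livers it ran from 1.88 to 15.8 CPM (median 7.62) in p150-negative and from 5.4 to 19.8 CPM (median 10.9) in p150-positive animals. In the cerebella it ran from 17.6 to 87.8 CPM (median 28.0) and from 14.4 to 39.0 CPM (median 23.3). The groups overlapped in both organs, and the difference between organs was -1.13 ± 0.48 (log2 with SE, adjusted p = 0.322). Exact permutation of genotype over animals, described below, gave -1.18 for Adar (p = 0.00991, or 0.012 adjusted over a fixed list of genes). Counts per gene sum over isoforms, so these values do not check the p150 genotype.

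Interferon-stimulated genes rose in p150-negative animals in both organs, and the rise was larger in the cerebellum. The list held 56 genes, of which 49 had enough counts in both organs. Of these 49, the difference between organs was negative and called for 21 and positive and called for 0, against 1.34% and 1.15% of all genes. The median difference over the 49 was -1.85, against 0.05 over all genes. In the liver 37 of 53 tested members rose, with a median effect of 1.72, and in the cerebellum 35 of 48 rose, with a median of 3.01 (38 of 48 and 3.21 without animal 2). Of all genes, 6.93% rose in the liver and 0.723% in the cerebellum. No member was called lower in either organ. In fits over all 29 libraries, which take in the cerebellum of animal 2, the called members were 13 without the animal block and 3 with animal as a random block in limma's voom. Without the block and without that library they were 19. These genes were chosen with earlier results of these data known. Genes with too few counts in 1 organ could not be tested, so the counts describe the tested members only. Members near 0 in p150-positive cerebella passed the count filter there through the p150-negative animals. For these a negative difference was favoured, and its size is uncertain.

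Usp18, which removes ISG15 from proteins and dampens signalling at the type I interferon receptor, shows the pattern (ENSMUSG00000030107, chr6:121245906-121270917, plus strand). In p150-positive livers it ran from 28.1 to 94.6 CPM (median 42.7) and in p150-negative livers from 113 to 340 CPM (median 174). In p150-positive cerebella it ran from 1.49 to 11.4 CPM (median 4.8) and in p150-negative cerebella, animal 2 aside, from 133 to 271 CPM (median 244). With animal 2 set aside, the genotypes did not overlap in either organ, and the p150-negative animals reached similar levels in both from unequal p150-positive levels. The effect was 1.98 ± 0.26 (SE) in the liver and 5.37 ± 0.64 in the cerebellum, or 5.56 without animal 2, whose own value was 3.47 CPM. The difference between organs was -3.70 ± 0.43 (adjusted p = 5.4e-05).

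Isg15, the gene of the ubiquitin-like modifier itself (ENSMUSG00000035692, chr4:156199424-156200818, minus strand), ran from 14.3 to 99.8 CPM (median 23.7) in p150-positive livers and from 52.7 to 288 CPM (median 163) in p150-negative livers. Cerebellar levels ran from 1.76 to 10.0 CPM (median 3.84) and, animal 2 aside, from 45.9 to 151 CPM (median 93.3). The liver groups overlapped through animal 12 alone on the p150-positive side, and the cerebellum groups did not overlap once animal 2 was set aside. The difference was -1.85 ± 0.34 (adjusted p = 0.00481). Oasl2, an oligoadenylate synthetase-like gene (ENSMUSG00000029561, chr5:114896936-114912234, plus strand), had medians of 15.5 and 76.1 CPM in p150-positive and p150-negative livers, and of 6.5 and 311 CPM in the cerebella without animal 2. Its difference was -3.11 ± 0.31 (adjusted p = 9.45e-06). Ifit1, which binds RNA lacking the cap methylation of host messenger RNA (ENSMUSG00000034459, chr19:34640871-34650009, plus strand), had medians of 28.8 and 174 CPM in the livers and of 8.11 and 371 CPM in the cerebella without animal 2. Its difference was -3.03 ± 0.64 (adjusted p = 0.0135). In p150-negative animals the medians of Oasl2 and Ifit1 were higher in the cerebellum than in the liver, and that of Isg15 was lower there.

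**Figure D2:**
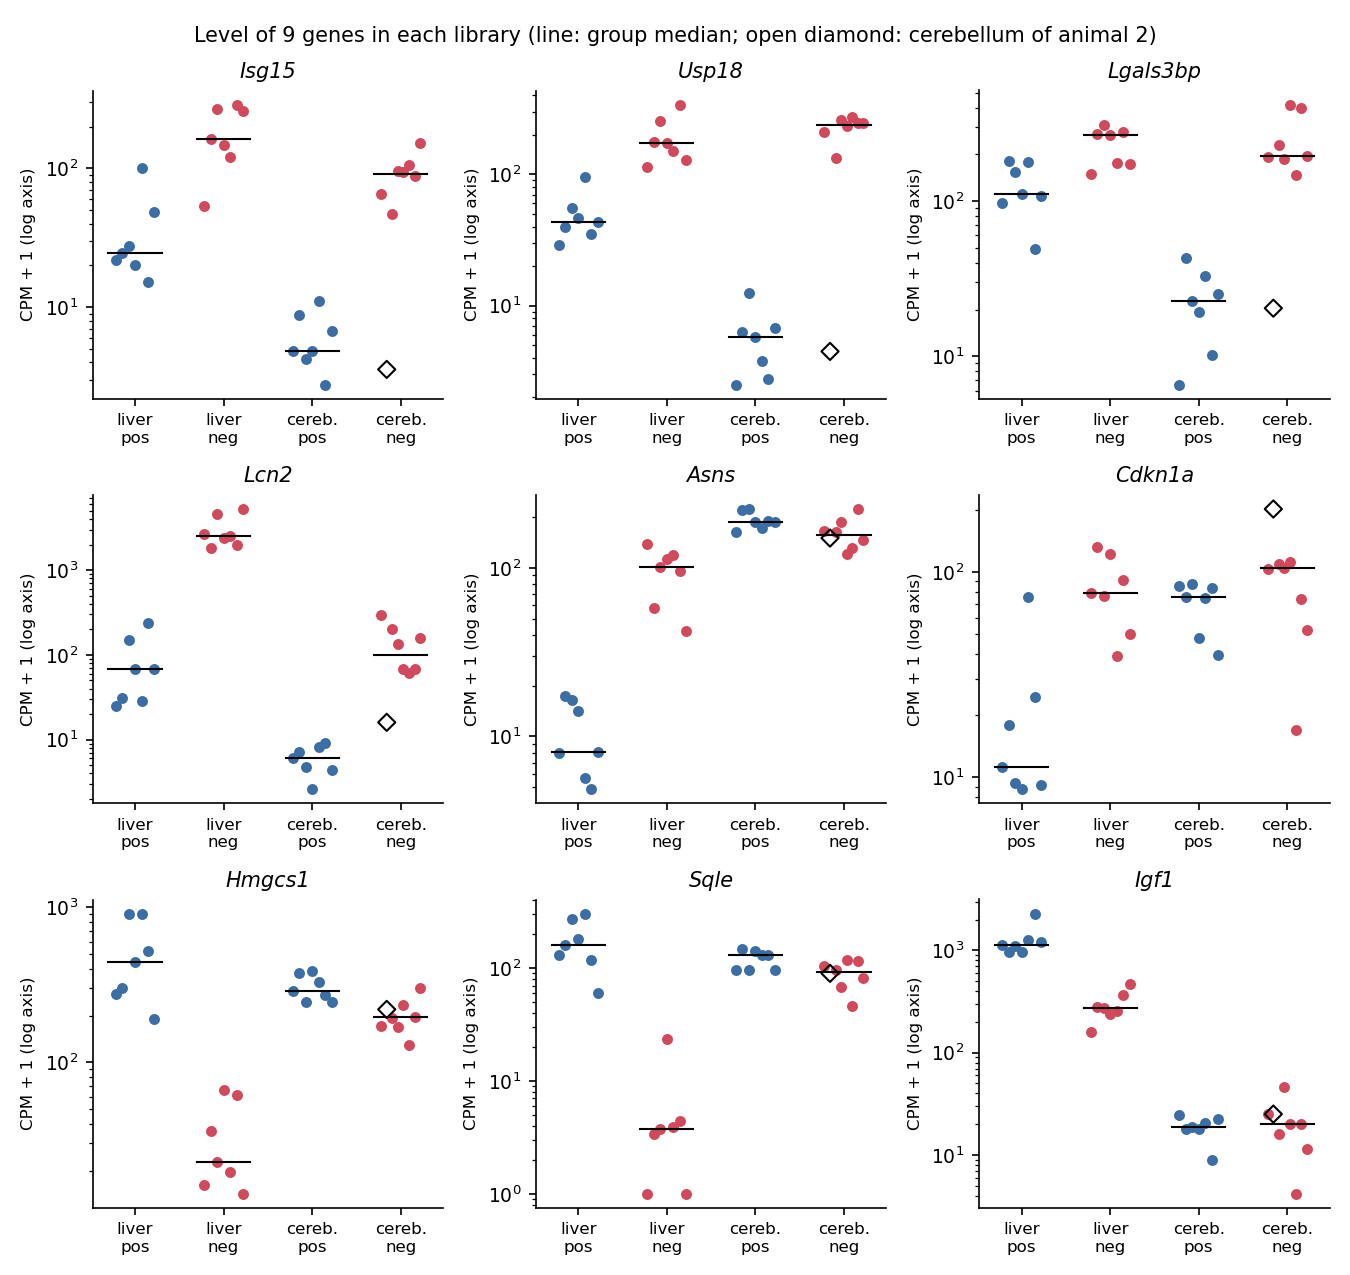
Level of 9 genes in each of the 29 libraries (vertical axis, CPM + 1, log axis), by organ and genotype (pos, p150-positive; neg, p150-negative), with a line at each group's median and an open diamond for the cerebellum of animal 2. The group medians of Isg15, Usp18, Lgals3bp and Lcn2 are higher in p150-negative animals in both organs, whereas Asns, Hmgcs1, Sqle and Igf1 separate the genotypes in the liver and overlap in the cerebellum.

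For several members with a called difference, p150-positive livers overlapped p150-negative livers. Ifi27l2a, an interferon-induced mitochondrial protein gene (ENSMUSG00000079017, chr12:103442167-103443680, minus strand), ran from 19.0 to 72.6 CPM in p150-positive and from 42.6 to 192 CPM in p150-negative livers. The cerebella ranged from 1.35 to 7.43 CPM and, animal 2 aside, from 77.0 to 505 CPM. Its difference of -5.04 ± 0.41 (adjusted p = 1.8e-06) was the largest in size of the list. With a median of 2.35 CPM in p150-positive cerebella, it passed the filter there through the p150-negative animals, so this size is uncertain. Lgals9, which encodes a galectin that binds sugars on immune cells, had a liver effect of -0.02 ± 0.20 (medians 999 CPM in p150-positive and 1090 CPM in p150-negative livers). In the cerebellum its effect was 2.48 ± 0.40, or 2.65 without animal 2 (medians 16.8 and, without animal 2, 118 CPM). Bst2, the gene of tetherin, which holds budding viruses at the cell surface, had a liver effect of 0.55 ± 0.29 that did not pass the test (adjusted p = 0.267) and a cerebellum effect of 3.22 ± 0.51, or 3.41 without animal 2. The difference of Lgals9 was -2.79 ± 0.27, and the 95% interval of that of Bst2 ran from -3.63 to -2.37 (adjusted p = 9.45e-06 each). Irf9, whose product is part of the complex that carries the interferon signal to the nucleus, had a difference of -2.74 ± 0.30 (adjusted p = 2.62e-05).

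The p150-positive level of these genes differed between the organs more than the p150-negative level did. In p150-positive animals, 46 of the 49 tested members had a higher mean CPM in the liver than in the cerebellum, and in p150-negative animals 31 did. The median over the members of the mean level was 20.9 CPM in p150-positive livers and 4.78 CPM in p150-positive cerebella. In p150-negative animals it was 59.4 CPM in the liver and 58.4 CPM in the cerebellum. Over all 9023 genes the corresponding medians were 22.2 and 40.3 CPM in p150-positive and 22.3 and 41.3 CPM in p150-negative animals. CPM is a share of each library's total, and organs differ in what makes up that total. In bulk tissue, fewer cells of a type and less RNA per cell cannot be told apart.

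**Figure D3:**
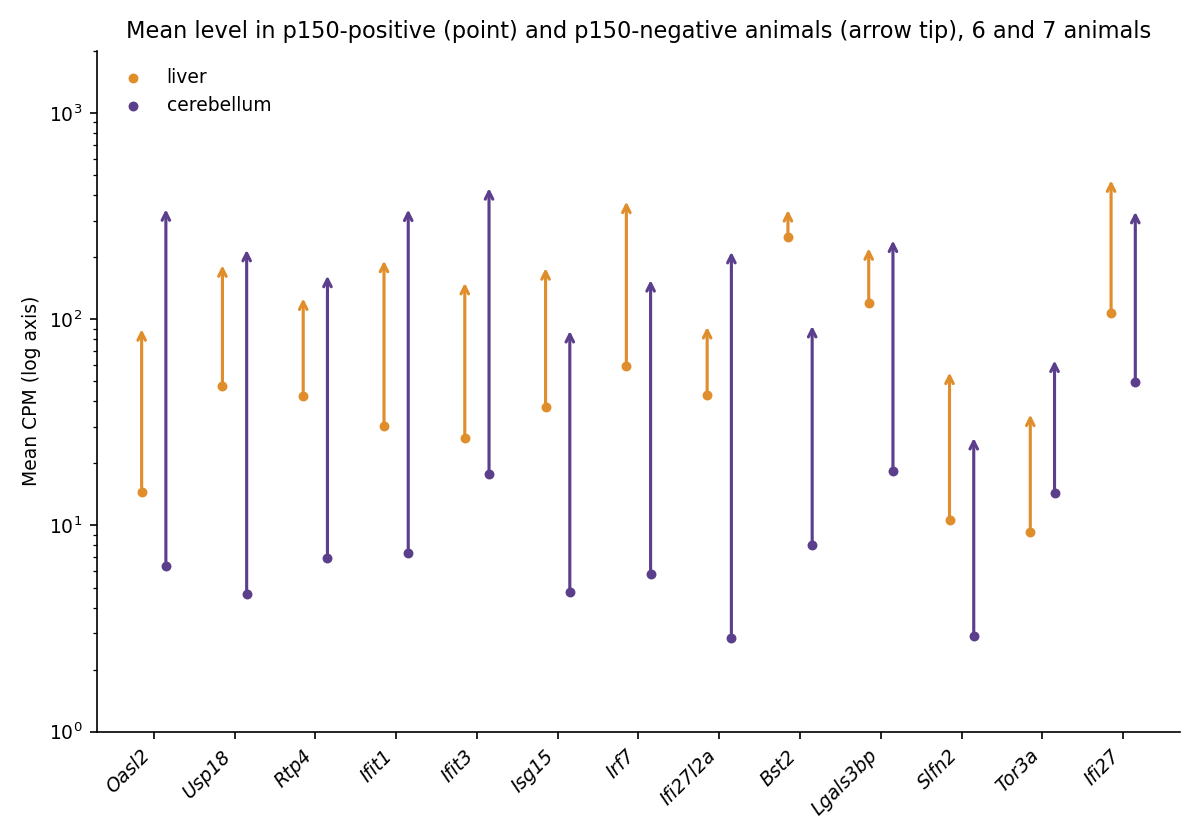
Mean CPM (log axis) of 13 interferon-stimulated genes in the 6 p150-positive animals (points) and the 7 p150-negative animals (arrow tips) with both organs, for liver (orange) and cerebellum (purple). The purple arrows start lower and are longer for most genes, while Tor3a and Ifi27 have arrows of similar length in both organs.

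Promoters of several of these genes hold the letters of the interferon-stimulated response element, the sequence bound by the STAT and IRF complex, and are shown because the members moved together. The motif searched was GAAA, then any 2 bases, then GAAA, on both strands in the 250 bases before the start in RefSeq's table (GRCm38.p6). It was present for 18 of the 44 list members with an entry (40.9%), against 936 of all 27025 genes (3.46%). Capitals mark every match, including overlapping ones, in these windows, written from 5′ to 3′ along each gene's strand. Isg15 is from chr4:156200835-156200936 (minus strand), Ifit1 from chr19:34640745-34640853 (plus), Ddx60 from chr8:61927994-61928086 (plus), Bst2 from chr8:71537547-71537642 (minus), Igtp from chr11:58199482-58199555 (plus) and Irgm1 from chr11:48871421-48871490 (minus).
Isg15: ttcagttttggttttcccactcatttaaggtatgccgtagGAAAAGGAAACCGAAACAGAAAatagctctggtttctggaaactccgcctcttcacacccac
Ifit1: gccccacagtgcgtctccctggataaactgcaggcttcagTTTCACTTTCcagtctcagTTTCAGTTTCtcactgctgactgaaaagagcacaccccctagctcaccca
Ddx60: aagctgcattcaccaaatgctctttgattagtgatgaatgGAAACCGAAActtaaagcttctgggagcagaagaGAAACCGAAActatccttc
Bst2: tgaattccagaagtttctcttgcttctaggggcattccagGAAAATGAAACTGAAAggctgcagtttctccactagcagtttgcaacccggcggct
Igtp: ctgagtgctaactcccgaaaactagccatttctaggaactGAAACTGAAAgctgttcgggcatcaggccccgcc
Irgm1: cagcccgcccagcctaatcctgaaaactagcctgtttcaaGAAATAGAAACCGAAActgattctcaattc
Isg15 has 3 matches that overlap, Ifit1, Ddx60, Bst2 and Irgm1 have 2 each, and Igtp has 1. Igtp and Irgm1 belong to the interferon gamma list described next and not to the interferon-stimulated list. Among members with called differences, Oasl2, Irf7 and Lgals3bp had an entry and no match in this window. A match describes the letters and is not evidence of binding.

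Genes best known as targets of interferon gamma followed the same direction. Of 21 such genes 16 were tested in both organs, with a median difference of -1.68. The difference was negative and called for 7 of them, against 1.34% of all genes. Over all 29 libraries, the cerebellum of animal 2 included, 3 were called without the animal block and 0 with animal as a random block in limma's voom, and without the block and that library 6. In the liver 4 of 17 tested members rose, and in the cerebellum 7 of 15 rose (11 of 15 without animal 2), against 6.93% and 0.723% of all genes. Irgm1, an immunity-related GTPase that acts on autophagy and vacuoles, ran from 36.7 to 569 CPM (median 113) in p150-positive livers and from 153 to 484 CPM (median 237) in p150-negative livers. Its cerebellar levels went from 5.76 to 30.5 CPM and from 37.3 to 270 CPM, without overlap even with animal 2. Its effect was 0.83 ± 0.42 in the liver (adjusted p = 0.257) and 3.29 ± 0.38 in the cerebellum (3.45 without animal 2), with a difference of -2.48 ± 0.41 (adjusted p = 0.00184). Iigp1, an effector GTPase of the same family, had a liver effect of -0.84 ± 0.56 (adjusted p = 0.409) with p150-positive livers at 290 to 4070 CPM and p150-negative livers at 272 to 822 CPM, and its difference was -4.28 ± 0.33 (adjusted p = 1.8e-06). The upper ends of the p150-positive liver ranges of both genes are animal 12, and the other 6 p150-positive livers reached 129 CPM for Irgm1, below all p150-negative livers, and 408 CPM for Iigp1. Summed over the list, animal 12 stood at 6830 CPM in the liver, against 561 to 814 CPM in the other p150-positive and 866 to 2870 CPM in the p150-negative livers. Without animal 12 the difference of Iigp1 was -4.21 and 6 members were called. Iigp1 had a median of 2.35 CPM in p150-positive cerebella and passed the filter there through the p150-negative animals. A negative difference was therefore favoured for it, and its size is uncertain. The motif above was present for 9 of the 12 genes of this list with a promoter entry (75%).

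More MHC class I antigen presentation genes rose in the cerebellum than in the liver. Of 20 genes 19 were tested in both organs, with a median difference of -0.99 and 6 called negative: H2-K1, H2-Q7 and H2-T23, which encode heavy chains, B2m, the shared light chain, and Psmb8 and Psmb9, which encode immunoproteasome subunits. In the liver 6 of 19 rose and in the cerebellum 11 of 19 (14 without animal 2), against 6.93% and 0.723% of all genes. A called negative difference was present for 1.34% of all genes. H2-K1 ran from 898 to 2120 CPM in p150-positive and from 1640 to 2310 CPM in p150-negative livers, overlapping groups with an effect of 0.42 ± 0.19 (adjusted p = 0.165). In the cerebella it ran from 36.1 to 68.0 CPM and, animal 2 aside, up to 356 CPM (median 272), an effect of 2.33 ± 0.33 (adjusted p = 0.000526), or 2.50 without that library. Its difference was -2.03 ± 0.22 (adjusted p = 1.8e-05). H2-Q7 belongs to a family of near-identical genes whose reads can be shared or dropped by counting, and its value is uncertain. With a median of 0 CPM in p150-positive cerebella, it also passed the filter there through the p150-negative animals, which favoured a negative difference. The H2-K1 level was higher in p150-positive livers than in p150-negative cerebella.

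Of the genes that sense double-stranded or Z-form nucleic acids or act below such sensors, 12 of 18 were tested in both organs and 4 had a called negative difference (1.34% of all genes did), against 1 with animal as a random block in voom over the 29 libraries. They are Ddx58 (the sensor RIG-I), Ifih1 (MDA5), Zbp1, which binds Z-form RNA and starts necroptosis, and Eif2ak2 (the kinase PKR). Ifih1 had medians of 26.1 and 41.5 CPM in p150-positive and p150-negative livers and of 0.854 and 15.6 CPM in the cerebella without animal 2, with a difference of -2.94 ± 0.60 (adjusted p = 0.00978). Zbp1 ran from 6.54 to 144 CPM in p150-positive and from 55.3 to 210 CPM in p150-negative livers, with animal 12 the highest of the p150-positive livers. In the cerebella Zbp1 ran from 0 to 5.52 CPM and, animal 2 aside, from 12.2 to 36.0 CPM, and its difference was -2.59 ± 0.55 (adjusted p = 0.013). Zbp1 and Ifih1, with medians of 0.271 and 0.854 CPM in p150-positive cerebella, passed the filter there through the p150-negative animals. A negative difference was therefore favoured for both, and its size is uncertain. For Eif2ak2 the liver effect of 0.69 ± 0.27 did not pass the test (adjusted p = 0.116), the cerebellum effect was 2.43 ± 0.41 (adjusted p = 0.00253), or 2.59 without animal 2, and the difference was -1.83 ± 0.41 (adjusted p = 0.0211).

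Some genes rose in both organs with no called difference. Lcn2, which encodes a secreted protein that binds bacterial iron carriers and is an acute phase gene (ENSMUSG00000026822, chr2:32384633-32388252, minus strand), ran from 23.9 to 234 CPM in p150-positive and from 1820 to 5250 CPM in p150-negative livers. Cerebellar levels ran from 1.6 to 8.02 CPM and from 15.0 to 295 CPM with animal 2 as the lowest. No group overlapped its counterpart. The effects were 5.17 ± 0.55 and 4.56 ± 0.52 (adjusted p = 3.17e-06 and 0.000165), and the difference was 1.07 ± 0.60, with a 95% interval from -0.20 to 2.34 (adjusted p = 0.513). The cerebella of animals 1 and 3 had Lcn2 at 295 and 201 CPM with Alb at 0.214 and 0 CPM. Other p150-negative cerebella had more Alb, with 29.9 CPM in animal 8 and 98.6 CPM in animal 9. The 6 hepatocyte genes tested in the cerebellum had a median effect of 1, and 0 were called. The part of liver RNA in cerebellar levels was not tested. Among interferon-stimulated genes, Tor3a (1.94 ± 0.34 and 2.07 ± 0.31) and Ifi27 (2.13 ± 0.29 and 2.53 ± 0.37) had similar effects in liver and cerebellum, with 95% intervals of the difference from -1.04 to 0.67 and from -1.03 to 0.05. These 2 genes were chosen after their values were seen. Rbm3, a cold-inducible RNA-binding protein gene, rose by 1.56 ± 0.20 in the liver and 0.93 ± 0.19 in the cerebellum (adjusted p = 1.81e-05 and 0.0134), with a difference of 0.71 ± 0.22 that did not pass the test (adjusted p = 0.113). The p150-negative cerebella ran from 104 to 181 CPM for Rbm3 with animal 2 among them, and the p150-positive ones from 43.5 to 105 CPM, so that the groups met at their edges.

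**Figure D4:**
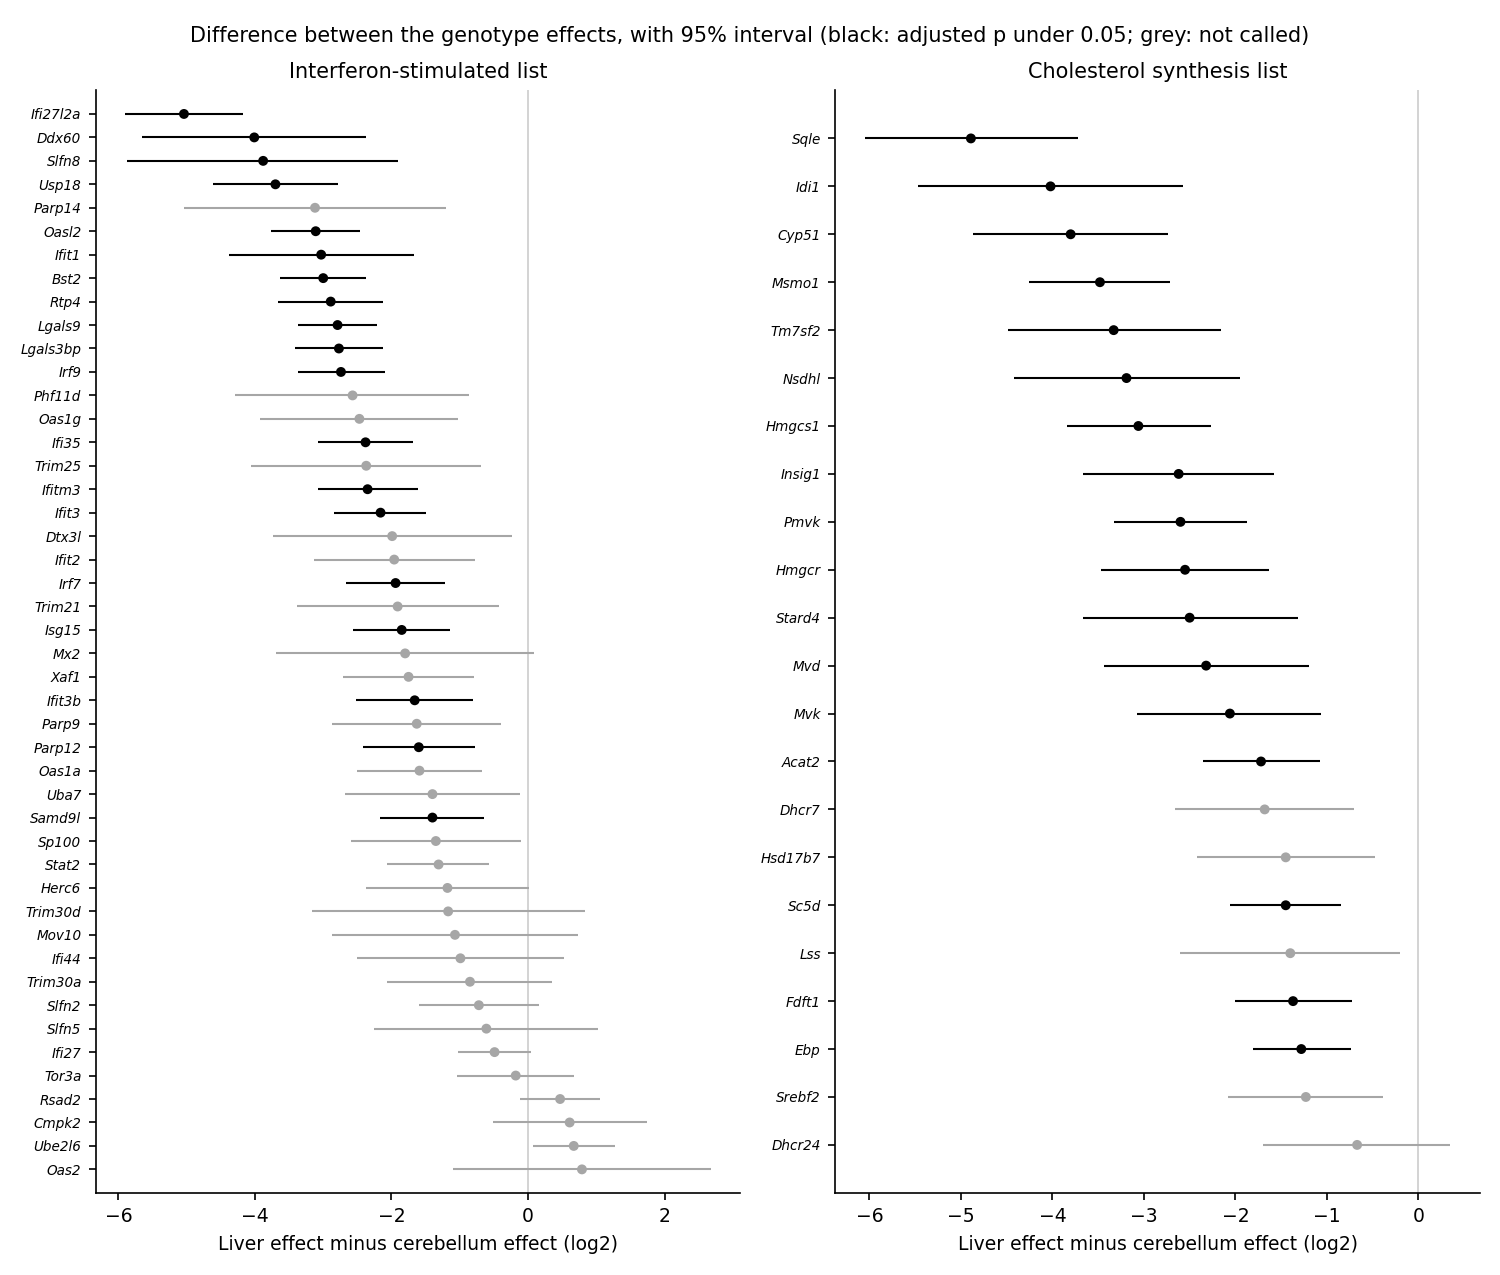
Difference between the genotype effects, liver minus cerebellum (horizontal axis, log2, points with 95% intervals), for the interferon-stimulated (left, 46 genes) and cholesterol synthesis (right, 22 genes) members shown of those tested in every fit, in black where the adjusted p is under 0.05. All 22 cholesterol synthesis points are below 0, and most interferon-stimulated points are below 0, with Rsad2, Cmpk2, Ube2l6 and Oas2 above it and not called.

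Cholesterol synthesis fell in the liver of p150-negative animals, and in the cerebellum 1 gene of the list passed the test. The list held 25 genes of the pathway and its regulation. In the liver all 24 tested members fell, with a median effect of -2.70, and in the cerebellum 1 of 23 fell, Msmo1, with a median of -0.42 (0 of 23 without animal 2). Among all genes 4.77% fell in the liver and 0.289% in the cerebellum. The difference between organs was negative and called for 17 of the 23 members tested in both, against 1.34% of all genes, and its median was -2.32. The median over the members of the mean level went from 117 CPM in p150-positive to 20.3 CPM in p150-negative livers, and from 55.2 to 60.2 CPM in the cerebella. Summed over the list, levels ran from 3530 to 7640 CPM and from 580 to 2050 CPM in the livers. In the cerebella the sums ran from 1840 to 2420 CPM and from 1220 to 1820 CPM, lower in every p150-negative cerebellum, animal 2 included, than in every p150-positive one. Over the 13 animals with both organs, 15 of the 23 had no overlap between genotypes in the liver, against 108 of 9023 genes (1.2%) with p150-negative animals lower. In the cerebella of these animals 2 of the 23 (8.7%) had none, against 40 of 9023 genes (0.443%).

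Hmgcs1, which makes the precursor that HMG-CoA reductase consumes (ENSMUSG00000093930, chr13:119690379-119708260, plus strand), ran from 190 to 908 CPM (median 442) in p150-positive livers and from 13.2 to 65.0 CPM (median 21.9) in p150-negative livers. The cerebella ranged from 242 to 386 CPM (median 286) and from 129 to 301 CPM (median 194). The liver groups did not overlap and the cerebellum groups did. The effects were -3.92 ± 0.42 in the liver and -0.64 ± 0.16 in the cerebellum (adjusted p = 3.08e-06 and 0.0743), and the difference was -3.06 ± 0.38 (adjusted p = 9.32e-05). Sqle, which encodes squalene epoxidase (ENSMUSG00000022351, chr15:59315077-59331192, plus strand), ran from 58.7 to 304 CPM in p150-positive and from 0 to 22.5 CPM in p150-negative livers. Its cerebellar levels went from 94.6 to 148 CPM and from 45.5 to 116 CPM. Its difference of -4.89 ± 0.55 (adjusted p = 3.41e-05) was the largest in size of the list. Msmo1, which removes methyl groups from sterols, fell in both organs, by 4.07 ± 0.36 in the liver and by 0.65 ± 0.15 in the cerebellum (adjusted p = 4.77e-07 and 0.0488, the second 0.0935 without animal 2), with a difference of -3.48 ± 0.36 (adjusted p = 1.69e-05). Idi1, Cyp51 and Insig1 had differences of -4.02 ± 0.69, -3.80 ± 0.51 and -2.62 ± 0.50 (adjusted p = 0.0026, 0.000225 and 0.00605).

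The sterol regulatory element, bound by SREBP proteins, was searched as TCACNCCAC on both strands of the same 250 bases. It was found for 331 of 27025 genes (1.22%) and for 1 of the 17 cholesterol genes with an entry, Hmgcs1, whose window is shown as that 1 match (GRCm38.p6, chr13:119690174-119690262, plus strand, the match in capitals).
Hmgcs1: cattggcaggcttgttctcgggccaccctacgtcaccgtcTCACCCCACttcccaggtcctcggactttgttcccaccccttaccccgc
Of the genes named above, Idi1, Msmo1 and Cyp51 had an entry and no match in this window.

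Genes of fatty acid synthesis also fell in the liver. Of 18 genes 14 were tested in both organs, with a median difference of -1.27, 5 called negative (Thrsp, Acss2, Fasn, Acly and Me1) and 1 called positive (Scd2). In the liver 10 of 17 fell and 1 rose, and in the cerebellum 1 of 15 fell, Fads1. Among all genes 4.77% fell in the liver, 0.289% fell in the cerebellum, and 1.34% had a called negative difference. Thrsp, a nuclear protein gene tied to lipogenesis, ran from 305 to 1930 CPM in p150-positive and from 1.52 to 31.7 CPM in p150-negative livers. In the cerebella the groups were nearly identical in range, at 105 to 218 CPM and 116 to 216 CPM. Its difference of -7.76 ± 0.68 (adjusted p = 4.21e-06) was the most negative of the named genes. Fasn, the fatty acid synthase gene, had medians of 217 and 33.6 CPM in the livers and of 83.2 and 85.1 CPM in the cerebella without animal 2, with a difference of -3.14 ± 0.51 (adjusted p = 0.00161). Mfsd2a, a transporter of lysophospholipids outside this list, had medians of 49.9 and 1.71 CPM in the livers and of 24.3 and 32.9 CPM in the cerebella without animal 2, with a difference of -5.35 ± 0.56 (adjusted p = 1.69e-05). The number of called fatty acid genes moved from 5 to 3 when the level of Xist by organ was added to the fit, and also to 3 without animal 1.

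In the growth hormone and IGF pathway, 1 of 15 members tested in both organs had a called difference, against 2.49% of all genes. Ghr, the growth hormone receptor gene, ran from 434 to 537 CPM in p150-positive and from 122 to 209 CPM in p150-negative livers, without overlap. In the cerebella it ran from 3.79 to 9.91 CPM and from 5.8 to 24.3 CPM, and the difference was -2.12 ± 0.35 (adjusted p = 0.00161). Igf1, which growth hormone induces in the liver, ran from 966 to 2290 CPM in p150-positive and from 157 to 468 CPM in p150-negative livers, an effect of -2.11 ± 0.27 (adjusted p = 1.93e-05). Cerebellar levels ran from 8.02 to 23.5 CPM and from 3.18 to 45.7 CPM, an effect of 0.16 ± 0.37. The difference for Igf1 was -2.11 ± 0.58 with a 95% interval from -3.33 to -0.89, and it did not pass the test over all genes (adjusted p = 0.0659).

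Other genes rose in the liver and did not pass the test in the cerebellum. Asns, the asparagine synthetase gene and a target of ATF4 in the integrated stress response (ENSMUSG00000029752, chr6:7675169-7693254, minus strand), ran from 3.86 to 16.4 CPM in p150-positive and from 41.3 to 138 CPM in p150-negative livers. The cerebella ranged from 162 to 221 CPM and from 119 to 222 CPM. The cerebellum groups overlapped, and p150-negative livers stayed below the p150-positive cerebella. The effects were 3.39 ± 0.34 and -0.29 ± 0.13 (adjusted p = 1.91e-06 and 0.454), with a difference of 3.79 ± 0.35 (adjusted p = 5.91e-06). Asns was the 1 called gene among the 20 ATF4 targets tested in both organs, against 2.49% of all genes. The median difference of the 20 was 0.68. In the liver 4 of 22 rose (Asns, Atf3, Ddit3 and Trib3) and in the cerebellum 0 of 26, against 6.93% and 0.723% of all genes. Trib3, which rose by 2.24 ± 0.43 in the liver (adjusted p = 0.00116), had too few cerebellar counts for that test. Its cerebellar medians were 0.345 CPM in p150-positive and 4.34 CPM in p150-negative animals, so a liver-only response is not shown. Exact permutation of genotype over animals gave a liver minus cerebellum difference of 0.55 (p = 0.579).

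Of 13 targets of p53 tested in both organs, Btg2 and Cdkn1a had called positive differences, against 1.15% of all genes. Cdkn1a, which encodes the cell cycle inhibitor p21, ran from 7.73 to 74.2 CPM (median 10.2) in p150-positive and from 37.8 to 131 CPM (median 78.1) in p150-negative livers. Its cerebellar levels went from 38.2 to 86.1 CPM and from 15.9 to 202 CPM, with animal 2 the highest. The groups overlapped in both organs. The difference was 2.14 ± 0.43 (adjusted p = 0.00885), and it was not called without the animal block (1.51, adjusted p = 0.191). Btg2, which also restrains proliferation, ran from 16.7 to 44.0 CPM in p150-positive and from 78.1 to 278 CPM in p150-negative livers, without overlap, with a difference of 2.45 ± 0.41 (adjusted p = 0.00192). Jun, an immediate early gene of the AP-1 complex, had liver medians of 4.65 and 35.7 CPM and a difference of 2.90 ± 0.55 (adjusted p = 0.00637).

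The largest positive differences among named genes belonged to genes low in p150-positive livers. Igdcc4, which encodes an immunoglobulin superfamily membrane protein, ran from 18.7 to 46.8 CPM in p150-negative livers and from 0 to 2.92 CPM in p150-positive livers, and was listed at 0 in the 6 of these whose animals also have a cerebellum. Its cerebella ran from 20.4 to 43.1 CPM in p150-positive and from 3.84 to 58.2 CPM in p150-negative animals. Because a whole group is at 0 in the test, no size of its difference is given. Lepr, the leptin receptor gene, ran from 6.56 to 40.5 CPM in p150-positive and from 81.0 to 758 CPM in p150-negative livers, with a difference of 4.03 ± 0.80 (adjusted p = 0.00789). Ly6d, a surface protein gene, had liver medians of 7.24 and 111 CPM and a difference of 4.37 ± 0.77 (adjusted p = 0.00359). Bmper, whose product binds bone morphogenetic proteins, had liver medians of 2.07 and 43.7 CPM and a difference of 4.48 ± 0.95 (adjusted p = 0.013). A2m, Ntf3, Smpd3 and Cerkl had differences of 6.23 ± 0.89, 4.60 ± 0.69, 4.43 ± 0.86 and 4.01 ± 0.83 (adjusted p = 0.000541, 0.000806, 0.00724 and 0.0113). Chil1 and F13a1 had differences of 4.94 ± 1.22 and 4.75 ± 1.11 (adjusted p = 0.035 and 0.0257), and each was called in only 3 fits that left out 1 animal, of 13 that tested Chil1 and 7 that tested F13a1. Medians in p150-positive livers were 0.386 (A2m), 0.678 (Ntf3), 1.02 (Smpd3), 2.5 (Cerkl), 1.19 (Chil1) and 0 CPM (F13a1). Genes this low passed the count filter in the liver through the p150-negative animals. A positive difference was therefore favoured for them, and its size is uncertain.

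Genes of myeloid cells rose in the liver, and few passed the test in the cerebellum. Of 18 macrophage and monocyte genes, 14 of 17 tested rose in the liver and 1 of 11 in the cerebellum (2 without animal 2), against 6.93% and 0.723% of all genes. The difference was called for 2 of 10, against 2.49% of all genes. They were Lyz2, the gene of lysozyme, at 1.21 ± 0.23 and Ly6c2, a monocyte surface gene, at 2.58 ± 0.61 (adjusted p = 0.00539 and 0.0273). Lyz2 ran from 77.9 to 187 CPM in p150-positive and from 298 to 826 CPM in p150-negative livers, and from 29.5 to 60.4 CPM and 23.4 to 140 CPM in the cerebella. All 10 tested neutrophil genes rose in the liver and 0 of 7 in the cerebellum, against 6.93% and 0.723% of all genes. The median difference was 2.46, but it was called for 0 of 7, against 2.49% of all genes. The nearest was S100a8, a calcium-binding granulocyte gene, at 2.46 ± 0.65 (adjusted p = 0.0506).

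The summed level of these markers moved with genotype. The macrophage and monocyte list summed to 490 to 1120 CPM in p150-positive and 1560 to 3630 CPM in p150-negative livers, and to 119 to 210 and 152 to 646 CPM in the cerebella. The neutrophil list summed to 32.1 to 190 and 559 to 1730 CPM in the livers and to 29.4 to 106 and 50.3 to 389 CPM in the cerebella, with up to 11 of its 14 genes at 0 in a p150-negative cerebellum. The part of these cells in the results above was not tested. Of the microglia genes tested, 7 of 11 rose in the liver and 3 of 17 in the cerebellum (4 without animal 2), against 6.93% and 0.723% of all genes. The difference was called for 1 of 10, against 2.49% of all genes. C1qa, C1qb and C1qc, which encode complement C1q, rose in both organs, and C1qa had a difference of -0.49 ± 0.34 (adjusted p = 0.614). Trem2, a receptor of microglia and other macrophages, had a called positive difference of 2.72 ± 0.69 (adjusted p = 0.0419), with at most 0.772 CPM in p150-positive livers. It passed the filter in the liver through the p150-negative animals, so a positive difference was favoured and its size is uncertain.

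Acute phase genes were largely measurable in the liver alone, where 25 of 31 rose, against 6.93% of all genes. In the cerebellum 3 of 14 rose (Lcn2, Lrg1 and Serpina3n), against 0.723% of all genes. Of the 13 tested in both organs 1 had a called difference (2.49% of all genes did), Lrg1, a leucine-rich glycoprotein gene. It ran from 203 to 691 CPM and from 1000 to 2430 CPM in the livers and from 0 to 1.75 CPM and 4.21 to 75.1 CPM in the cerebella, without overlap in either, and its difference was -2.82 ± 0.49 (adjusted p = 0.00297). Of 5 cytokine genes tested in both organs, 1 had a called difference (2.49% of all genes did). It was Cxcl10, a chemokine induced by interferon, at -3.76 ± 0.77 (adjusted p = 0.00967). Its medians were 6.44 and 47.6 CPM in the livers and 0.271 and 30.2 CPM in the cerebella without animal 2. Lrg1 had a median of 1.04 CPM in p150-positive cerebella. Both genes passed the filter in the cerebellum through the p150-negative animals, so a negative difference was favoured and its size is uncertain.

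Aqp4, the water channel of astrocyte endfeet (ENSMUSG00000024411), was the 1 gene called in opposite directions. In the livers it ran from 2.03 to 7.73 CPM in p150-positive and from 4.11 to 25.3 CPM in p150-negative animals, an effect of 1.68 ± 0.46 (adjusted p = 0.0201). In the cerebella it ran from 550 to 913 CPM and from 181 to 562 CPM, an effect of -0.96 ± 0.18 (adjusted p = 0.00794). The groups overlapped at their edges in both organs, and the difference was 2.42 ± 0.49 (adjusted p = 0.0089). Summed astrocyte genes ran from 10100 to 13500 CPM in p150-positive and from 8030 to 14000 CPM in p150-negative cerebella. Slc1a2, a glutamate transporter gene found in astrocytes and in hepatocytes around the central vein, fell by 2.57 ± 0.47 in the liver (adjusted p = 0.000824) and had a cerebellum effect of 0.21 ± 0.24, with a difference of -2.66 ± 0.52 (adjusted p = 0.00773). Vcam1, an adhesion molecule of activated endothelium, had a difference of 1.31 ± 0.26 (adjusted p = 0.00789), with liver medians of 34.5 and 139 CPM.

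The 9 genes lower in both organs fell by less than 1 on the log2 scale in the cerebellum, and 6 of them were called without animal 2, Msmo1, Trp53inp2 and Fkbp4 being lost. Fads1, a fatty acid desaturase gene, fell by 1.68 ± 0.27 in the liver and by 0.80 ± 0.18 in the cerebellum (adjusted p = 0.000264 and 0.0267). Idh1, the cytosolic isocitrate dehydrogenase gene, fell by 1.05 ± 0.21 and by 0.61 ± 0.13, and Aldh1a1, a retinaldehyde dehydrogenase gene, by 0.90 ± 0.26 and by 0.53 ± 0.10. Nat8f1, Trp53inp2, Bpgm and Tmem33 fell in both as well, and the difference was called for Msmo1 alone of the 9. Red cell genes were lower in p150-negative cerebella for 3 of 7 (Alas2, Hba-a1 and Hbb-bs, the last with adjusted p = 0.0845 without animal 2) and for 0 of 8 in the liver, against 0.289% and 4.77% of all genes, and 0 of 7 had a called difference. Their summed level ran from 2310 to 4720 CPM in p150-positive and from 682 to 2320 CPM in p150-negative cerebella, and the part of blood in the cerebellar results was not tested.

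Many lists showed no called difference between the organs, among them the ribosomal protein (37 genes, median -0.31), oxidative phosphorylation (30, -0.11), unfolded protein response (20, -0.21), cell cycle (15, 0.05) and circadian clock (15, -0.25) lists. Among 20 tRNA synthetases 1 was called (2.49% of all genes were), Cars, at -1.16 ± 0.30 (adjusted p = 0.049), with a list median of 0.00. All 37 ribosomal protein genes had a negative difference although none was called. They are measured in the same libraries, so their shared sign is not independent agreement. Median sums of the list were 3870 and 4360 CPM in p150-positive and p150-negative livers, and 3270 and 3770 CPM in the cerebella. The highest library reached 11200 CPM in p150-positive livers and 6690 CPM in p150-negative cerebella. Cerebellar neuron and myelin genes could be tested in both organs for 2 and 3 members, none of them called, and in the cerebellum alone 0 of 18 and 0 of 16 passed the test.

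Across the 7 p150-negative animals with both organs, the level of a gene in the liver was compared with its level in the cerebellum for 9 genes. Pearson's r ran from 0.23 (Usp18) to 0.87 (Cdkn1a), and Spearman's rho from 0.32 (Lgals3bp) to 0.93 (Cdkn1a). For Cdkn1a the exact two-sided permutation p was 0.00694 for r and 0.00675 for rho, or 0.0625 and 0.0607 after Benjamini-Hochberg adjustment over the 9 genes. Without the 2 animals farthest from the median of the liver level its r was 0.76 (exact p = 0.15). For Rbm3 r was 0.66 and rho 0.75 (exact p = 0.104 and 0.0663), and for Isg15 they were 0.52 and 0.43 (exact p = 0.22 and 0.354). None of the 9 passed the test. The labels name no batch, but the letters that begin the animal identifiers are shared between animals, and their meaning is not given. With these prefixes by organ added to the fit of the difference, 104 genes were called positive and 119 negative. Exact permutation of genotype over the 13 animals, applied to each animal's liver minus cerebellum log2 CPM, gave its smallest possible two-sided p of 0.000583 for Usp18, Oasl2, Ifit1, Lgals3bp, Eif2ak2, Asns and Hmgcs1, and 0.0944 for Lcn2. The permutation p was 0.00991 for Adar, 0.00408 for Rbm3 and 0.0146 for Igf1, which did not pass the test over all genes. After adjustment over the genes named whatever they showed, these 3 permutation values were 0.012, 0.00552 and 0.0168.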

How the data were processed

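Per the labels' protocols, RNA came from TRIzol and Directzol columns with DNase, and libraries were Nextera XT. Per the submitters' processing notes, the tools were HTSeq 0.4.1, FastQC 0.11.3, STAR 2.4.2a, SAMtools 1.2 and Picard 1.134, with build GRCm38 (mm10). The role of each tool, the annotation and the strand setting are not given in the sources used here, so overlapping antisense genes cannot be told apart. The deposited table gives unnormalized gene-level read counts for every library. Of 53471 rows, 6 identifiers were repeated with identical counts and used once. Rows without a symbol (3433) held 0.267% of counts and 0 columns lacked a sample.

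Genes had to pass edgeR 4.0.16's filterByExpr (minimum count 10, minimum total 15) in both organs. The difference was fitted with animal as block, organ and genotype by organ, TMM normalization and the quasi-likelihood test (R 4.3.3), with 11 residual degrees of freedom. Single organs were fitted on 14 livers and 15 cerebella. SE are from the F statistic. CPM are on library totals. Same-numbered libraries come from the same animal per the labels, and their gene deviations correlated from -0.013 to 0.241. Alternatives included limma 3.58.1 and DESeq2 1.42.0.

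Members, the 45 gene lists and the tests were chosen with earlier results of these data known. Named genes are the 10 largest called differences per direction with a mean log2 CPM of at least 1 in both organs, up to 8 per direction called in both organs, those called in opposite directions, up to 4 members of each list by smallest p, and 23 genes named whatever they showed, of which 2 are not reported here. Predicted and sex-linked genes were left out. Not every gene that met a rule is named. Others named beyond them (Irf9, Tor3a, Ifi27, Cyp51, Insig1, and the members called in a list) were chosen after their values were seen.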

Additional observations from a re-analysis of the deposited data

Results flagged for a closer look

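The genotype effect differed between liver and cerebellum for 104 genes with a more positive and 121 with a more negative effect in the liver, by the test of the difference itself. Of 21 genes named whatever they showed, 16 had such a difference (log2, liver effect minus cerebellum effect), against 2.49% of all genes. The 21 were chosen with earlier results of these data known, so the count is not independent support. Trib3, which is among them, could not be tested. The difference is given next. It was negative for Usp18 (-3.7), Cxcl10 (-3.76), Oasl2 (-3.11), Ifit1 (-3.03), Ifih1 (-2.94), Lgals3bp (-2.77), Zbp1 (-2.59), Irf7 (-1.94), Isg15 (-1.85) and Eif2ak2 (-1.83) among interferon and sensor genes, and for Sqle (-4.89), Fasn (-3.14), Hmgcs1 (-3.06) and Ghr (-2.12) among metabolic and hormone genes. It was positive for Asns (3.79) and Cdkn1a (2.14). Cxcl10, Ifih1 and Zbp1 were low in p150-positive cerebella and passed the filter there through the p150-negative animals, so their sizes are uncertain.

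A sample far from the others of its group was looked for among these 21 genes in 84 groups with Dixon's criterion at 95%, which chance meets in about 5% of groups, and 18 groups met it. In 9 of them the sample was the cerebellum of animal 2, labelled p150-negative, with Zbp1 at 0 CPM, Eif2ak2 at 8.05, Isg15 at 2.56, Ifit1 at 8.05, Irf7 at 3.47, Oasl2 at 0, Usp18 at 3.47, Lgals3bp at 19.4 and Cxcl10 at 3.66 CPM. The lowest of the other 7 p150-negative cerebella had Eif2ak2 at 24.8, Irf7 at 67.7, Lgals3bp at 147 and Cxcl10 at 20.5 CPM. The cause was not tested.

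The other flagged samples were spread over animals. Adar was at 87.8 CPM in the p150-negative cerebellum of animal 11, against 17.6 to 33.5 CPM in the others. The p150-positive animal 12 had Zbp1 at 5.52 CPM in the cerebellum (others 0 to 0.962) and Cxcl10 at 24.6 CPM in the liver (others 3.86 to 8.76). The p150-positive animal 13 had Ifit1 at 0 CPM in the cerebellum (others 5.44 to 20.2), Oasl2 at 1.16 CPM in the liver (others 9.16 to 31.5), and Igf1 at 2290 CPM in the liver (others 966 to 1250) and 8.02 CPM in the cerebellum (others 16.9 to 23.5). Rbm3 was at 13.7 CPM in the p150-positive liver of animal 10 (others 22.8 to 31.3), and Ghr at 3.79 CPM in the p150-positive cerebellum of animal 6 (others 7.43 to 9.91).

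In the libraries that were left out, library 4 (labelled liver, animal 2) held kidney genes at 8280 CPM and adrenal genes at 3820 CPM, against at most 9.63 and 92.9 CPM in the livers used. Library 20 (labelled cerebellum, animal 7) held spinal cord Hox genes at 108 CPM, against at most 6.7 CPM in the cerebella used.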

How the results depend on the processing

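Without the replicate block, in 1 fit over the 29 libraries, the difference between organs was called for 144 and 141 genes in place of 104 and 121 (positive and negative), and for 13 interferon-stimulated and 3 interferon gamma members in place of 21 and 7. Without the block and without the cerebellum of animal 2 (chosen after seeing the data) these were 128 and 152 genes, and 19 and 6 members. With animal as a random block in limma's voom on the same 29 libraries, 193 genes were positive and 120 negative, and 3, 0 and 1 members of the interferon-stimulated, interferon gamma and sensing lists were called, against 19 of the cholesterol list.

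No expression filter gave 253 and 258 genes (32024 tested) and DESeq2 273 and 209. DESeq2 also gave 174 higher and 113 lower in the cerebellum, and the liver with all labelled libraries 418 and 311. Leaving out each animal in turn gave 68 (without animal 1) to 132 (without animal 11) positive and 86 (without animal 4) to 180 (without animal 11) negative genes. It gave 548 to 832 higher and 353 to 654 lower genes in the liver, and 72 to 115 higher and 18 (without animal 4) to 68 (without animal 11) lower genes in the cerebellum. The called members ran from 16 to 26 for interferon-stimulated and 14 to 19 for cholesterol genes. The relation for Usp18 turned to r = -0.38 without the 2 farthest animals, and the difference for Bpgm (0.12, not called) ran from -0.02 (without animal 13) to 0.24 (without animal 6). The cause was not tested. RLE and within-organ scaling moved the median of all genes from 0.05 to 0.06 and 0.03. Genes without 10 counts in enough libraries of each organ could not be tested.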
